A study of Mus musculus with 60 samples.

Results

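The 8 genes described here encode the core of the endocannabinoid system: the receptor CB1 (Cnr1) and 7 enzymes that make or break down its 2 main lipid ligands. They were taken by name from a deposited expression table and are 8 of 24508 gene symbols in it. The table comes from RNA-seq of hippocampus of 30-week-old mice, with 9 wild-type (WT) and 9 R6/1 libraries that the labels call independent biological replicates. Both genotypes share a mixed CBA x C57BL/6 background. The R6/1 line models Huntington's disease through a transgene in which the human huntingtin promoter drives the first huntingtin exon with an expanded CAG repeat. No treatment is named for either genotype. Whole hippocampus was used, so each value averages over all cell types of the tissue. For a bulk sample, fewer cells of a type and less RNA per cell cannot be told apart. Lamin B1 ChIP-seq of the same tissue, from pools of 5 mice, gave 1 deposited domain list per genotype.

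Endocannabinoids are lipid messengers made on demand in postsynaptic membranes. They cross the synapse backwards and act on CB1, a Gi/o-coupled receptor of axon terminals that lowers transmitter release. 2-arachidonoylglycerol (2-AG) is cut from diacylglycerol by the lipases DAGLα (Dagla) and DAGLβ (Daglb), and is hydrolysed by monoacylglycerol lipase (Mgll) and by ABHD6 and ABHD12. Anandamide is an N-acylethanolamine (NAE), which can be released by the phospholipase D NAPE-PLD (Napepld) and is hydrolysed by fatty acid amide hydrolase (Faah). In hippocampus CB1 is densest on axons of cholecystokinin (CCK) interneurons and lower on glutamatergic axons.

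The genes lie on 6 chromosomes of mouse build NCBIM37 (mm9), the build named in the submitters' processing notes. With GENCODE vM1 annotation, Cnr1 spans chr4:34011568-34035806 on the plus strand, and Faah lies on the minus strand of the same chromosome at chr4:115639750-115690531. Dagla lies at chr19:10319755-10379367 (minus strand) and Daglb at chr5:144225361-144265310 (plus strand). Mgll lies at chr6:88674406-88778354 (plus strand), Abhd6 at chr14:8835416-8889069 (plus strand) and Abhd12 at chr2:150658229-150730477 (minus strand). Napepld lies at chr5:21168719-21207214 (minus strand). Each is annotated as a protein-coding gene, and none overlaps another gene on its own strand. On the opposite strand Mgll overlaps the lincRNA Gm16628, Abhd12 a small nucleolar RNA gene and Napepld a pseudogene. The libraries were stranded, but whether reads were counted by strand is not given in the sources used here, so reads of these 3 genes and of their antisense partners may not be separated.

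The promoters of the receptor and of the principal hydrolase of each ligand are shown because these 3 genes carry the receptor and breakdown results below. The sequences are RefSeq promoters of assembly GRCm38.p6, 300 bases each, from 250 bases before to 50 after the most upstream start. Each occurs exactly once in NCBIM37, at chr4:34010989-34011288 (plus strand) for Cnr1, chr6:88674156-88674455 (plus strand) for Mgll and chr4:115690480-115690779 (minus strand) for Faah. Capitals mark GGGCGG or its reverse complement, the GC box that SP and KLF factors recognise.
Cnr1: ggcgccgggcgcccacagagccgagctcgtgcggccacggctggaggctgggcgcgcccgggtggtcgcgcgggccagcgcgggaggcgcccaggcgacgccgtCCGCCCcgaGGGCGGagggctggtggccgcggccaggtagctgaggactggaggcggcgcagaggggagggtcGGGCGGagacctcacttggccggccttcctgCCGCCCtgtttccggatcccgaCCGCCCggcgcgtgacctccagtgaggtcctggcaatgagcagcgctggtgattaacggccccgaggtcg
Mgll: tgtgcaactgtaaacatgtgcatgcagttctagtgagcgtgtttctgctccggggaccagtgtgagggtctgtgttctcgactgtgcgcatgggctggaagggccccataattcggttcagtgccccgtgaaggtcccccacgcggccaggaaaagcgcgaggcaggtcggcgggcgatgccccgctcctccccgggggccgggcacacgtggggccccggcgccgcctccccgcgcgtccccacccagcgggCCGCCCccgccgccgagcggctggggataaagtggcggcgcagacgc
Faah: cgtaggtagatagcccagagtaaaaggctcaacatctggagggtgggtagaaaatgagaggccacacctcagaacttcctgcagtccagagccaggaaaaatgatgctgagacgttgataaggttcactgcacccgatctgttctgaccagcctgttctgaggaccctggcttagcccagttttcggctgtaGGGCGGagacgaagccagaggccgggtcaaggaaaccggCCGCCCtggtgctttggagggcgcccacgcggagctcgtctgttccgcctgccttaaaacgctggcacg
The Cnr1 promoter held 5 GC boxes, that of Faah 2 and that of Mgll 1. Of the 8 genes, 6 had an entry in the promoter table (not Dagla and Abhd12), and 4 of those 6 held a GC box, Abhd6 with 1 being the other. Among all 32851 promoters of the same length, 35.7% held one. GC content was 76.3% for Cnr1, 70.0% for Mgll and 57.7% for Faah, against a median of 52.7% over all promoters. It was 60.7% for Abhd6, 70.3% for Napepld and 51.0% for Daglb, the last under the median. The ratio of observed to expected CpG was 0.93 for Cnr1, 0.87 for Mgll and 0.65 for Faah, against a median of 0.38. For Abhd6, Napepld and Daglb this ratio was 0.93, 0.78 and 0.57. The Faah promoter also held 1 EGR motif (GCGTGGGCG, in 0.612% of all promoters), and the Mgll promoter 1 E-box (CACGTG, in 7.15%). All motifs were searched on both strands. No match to the cyclic AMP response element (TGACGTCA), its core TGACG (part of the former), the NRF1 motif or TATAAA was found in the 6 windows, and CCAAT (in 37.4% of all promoters) was found once, in Abhd6. These matches describe the letters and not bound sites.

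Transcripts of 7 of the 8 genes were lower in R6/1 hippocampus and none was higher. Levels are RPKM, reads per kilobase of transcript scaled for depth by the authors. Differences are log2 fold changes of R6/1 against WT on the log2(RPKM + 0.5) scale, from limma fitted to the 14446 genes that averaged 0.5 RPKM or more, and called at a Benjamini-Hochberg adjusted p under 0.05. In that fit 48.3% of all tested genes were called, 23.5% lower and 24.8% higher in R6/1, so a call in either direction was common. Of the calls 51.4% were higher, which became 63.4% when libraries were scaled to their own total RPKM and 66.9% with limma voom on recovered reads, and under both the 7 genes were called lower and Abhd12 was called higher. Among the 9191 tested genes that averaged 5 RPKM or more, the range in which all 8 genes lie, 54.7% were called and 24.7% were called lower. The median log2 fold change was -0.38 over the 8 genes and 0.004 over all tested genes. For 4 of the 8 genes, every R6/1 library lay below every WT library, as it did for 6.38% of tested genes and for 7.61% of those at 5 RPKM or more. The summed level of the 8 genes was 342.2 to 391.7 RPKM in WT and 285.9 to 318.5 RPKM in R6/1, without overlap. The libraries held 12299434 to 16736544 reads on genes, and a library covered the 8 genes with between 333 reads (Napepld) and 5305 reads (Abhd12) each.

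**Figure D1:**
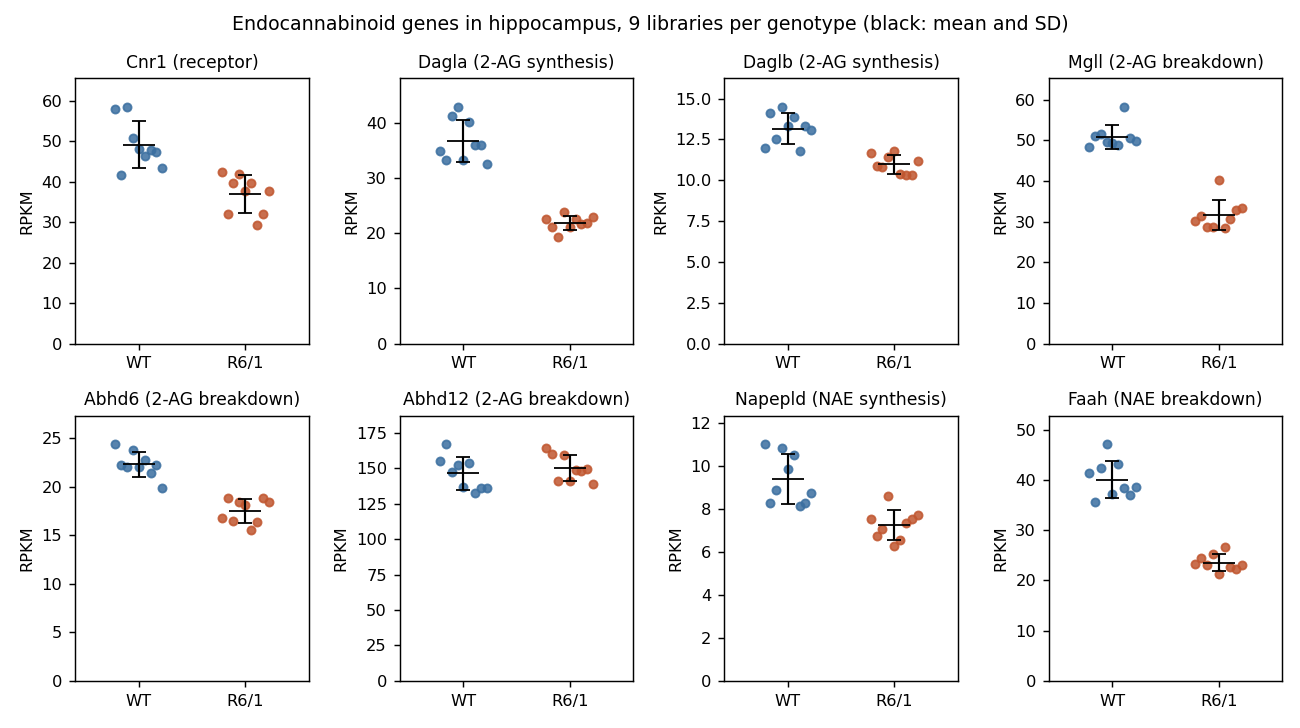
Level of each of the 8 endocannabinoid genes in RPKM (linear axes from 0) in 9 WT (blue) and 9 R6/1 (orange) libraries, 1 point per library, with mean and SD in black. Dagla, Mgll, Abhd6 and Faah have no R6/1 point as high as the lowest WT point, Cnr1, Daglb and Napepld overlap slightly, and the 2 genotypes of Abhd12 lie over each other.

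Cnr1, the receptor, measured 41.7, 47.8 and 58.5 RPKM as lowest, median and highest WT library, and 29.3, 37.8 and 42.5 RPKM in R6/1. Of the R6/1 libraries 2 lay above the lowest WT library, so the groups touched at their edges. Mean Cnr1 was 49.1 ± 5.80 RPKM in WT against 37.0 ± 4.76 RPKM in R6/1 (mean ± SD of 9 libraries), 24.7% lower. The log2 fold change was -0.41 (SE 0.077, 95% interval -0.57 to -0.25, limma adjusted p = 2.07e-04). This SE was the largest of the 8 genes. In the authors' deposited table, where 40.4% of genes with an adjusted p were called and 20.4% were called lower, the Cnr1 log2 fold change was -0.40 (adjusted p = 2.19e-06), and the same 7 of the 8 genes were lower.

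The 2 enzymes that make 2-AG fell by different amounts. Dagla, the main synthetic enzyme of the adult brain, was 32.6, 36.0 and 42.9 RPKM in WT (lowest, median, highest) and 19.3, 21.9 and 23.8 RPKM in R6/1. The groups did not overlap, and the R6/1 libraries were close together. Mean Dagla fell from 36.7 ± 3.78 to 21.9 ± 1.31 RPKM, or by 40.3%. The difference of -0.73 in log2 (SE 0.054, limma adjusted p = 1.63e-09) placed Dagla among the lowest 2.58% of tested genes. Daglb, the paralogous lipase, was 11.8, 13.3 and 14.5 RPKM in WT and 10.3, 10.9 and 11.8 RPKM in R6/1. A single R6/1 library lay above a single WT library. Mean Daglb went from 13.2 ± 0.948 to 11.0 ± 0.575 RPKM, 16.6% lower (log2 fold change -0.25, SE 0.044, limma adjusted p = 9.78e-05).

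The ratio of Dagla to Daglb inside a library does not depend on a single scaling factor per library. It was 2.37, 2.88 and 3.31 in WT (lowest, median, highest) and 1.78, 2.06 and 2.15 in R6/1, with no overlap. The mean log2 ratio was 1.48 ± 0.16 in WT and 0.99 ± 0.10 in R6/1 (SD), a difference of -0.48. The exact permutation test over 48620 ways to choose 9 of 18 libraries gave p = 4.11e-05, the smallest it can give, and 1.03e-04 after adjustment over the 5 ratios tested. Dagla therefore fell more than Daglb, as a measured difference between the 2 genes.

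Among the 3 hydrolases of 2-AG, Mgll fell most, Abhd6 fell less and Abhd12 did not pass the test. Mgll, the presynaptic lipase that removes most 2-AG in brain, was 48.4, 49.7 and 58.2 RPKM in WT (lowest, median, highest) and 28.5, 30.6 and 40.3 RPKM in R6/1. No R6/1 library reached the lowest WT library, although the highest R6/1 library stood apart from the other 8. Mean Mgll fell from 50.8 ± 2.96 to 31.6 ± 3.72 RPKM, by 37.8% (log2 fold change -0.68, SE 0.056, limma adjusted p = 6.50e-09). Abhd6, a postsynaptic hydrolase, was 19.9, 22.3 and 24.4 RPKM in WT and 15.6, 18.1 and 18.9 RPKM in R6/1. These groups did not overlap either, with a narrow gap between them. Its mean fell by 21.3% (22.3 ± 1.29 to 17.6 ± 1.21 RPKM), and its log2 fold change was -0.34 (SE 0.044, limma adjusted p = 2.73e-06).

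Abhd12, a hydrolase also known for breaking down lysophosphatidylserine, was the most abundant of the 8 transcripts. It measured 132.4, 147.6 and 166.9 RPKM in WT and 138.8, 148.6 and 164.1 RPKM in R6/1. The groups overlapped over nearly their whole range. The means were 146.3 ± 11.6 and 149.9 ± 9.19 RPKM, a difference of 0.04 in log2 (SE 0.047, limma adjusted p = 0.536). The 95% interval ran from -4.1% to 9.8%, so a difference of the size seen for Abhd6 lies outside it. Its call turned on scaling: it passed as higher under quantile normalization (0.13, limma adjusted p = 0.00308), with libraries scaled to their own total RPKM (0.09, limma adjusted p = 0.0446) and with limma voom on recovered reads (0.11, adjusted p = 0.028).

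Ratios set the hydrolases against each other inside each library. Abhd12 over Mgll was 2.28, 2.87 and 3.27 in WT (lowest, median, highest) and 3.49, 4.93 and 5.54 in R6/1. Every R6/1 library lay above every WT library, and the mean log2 ratio rose by 0.73 (exact permutation p = 4.11e-05, adjusted 1.03e-04). Abhd6 over Mgll was 0.368, 0.440 and 0.503 in WT and 0.448, 0.558 and 0.639 in R6/1, with overlap. That mean log2 ratio rose from -1.19 to -0.84, by 0.34 (exact permutation p = 2.06e-04, adjusted 2.57e-04). Dagla over Mgll, the main synthetic against the main degrading enzyme, was 0.619, 0.712 and 0.867 in WT and 0.525, 0.690 and 0.829 in R6/1. Its mean log2 ratio was -0.47 ± 0.17 in WT and -0.52 ± 0.19 in R6/1 (SD), a difference of -0.05 that did not pass the exact permutation test (p = 0.56).

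Both NAE enzymes fell, and the hydrolase fell more. Faah was 35.5, 38.5 and 47.1 RPKM in WT (lowest, median, highest) and 21.3, 23.0 and 26.7 RPKM in R6/1. The groups were well separated. Mean Faah fell from 40.0 ± 3.70 to 23.5 ± 1.64 RPKM, by 41.2%, and the difference of -0.75 in log2 (SE 0.052, 95% interval -0.86 to -0.64, limma adjusted p = 6.71e-10) was the lowest of the 8 genes. It placed Faah 344th from the lowest among all tested genes. Napepld, the least abundant of the 8, was 8.11, 8.89 and 11.0 RPKM in WT and 6.29, 7.32 and 8.58 RPKM in R6/1. The highest R6/1 library lay above the 3 lowest WT libraries. Mean Napepld was 9.39 ± 1.17 in WT and 7.26 ± 0.692 RPKM in R6/1, 22.7% lower (log2 fold change -0.35, SE 0.068, limma adjusted p = 3.03e-04).

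Napepld over Faah was 0.209, 0.230 and 0.267 in WT and 0.246, 0.324 and 0.339 in R6/1. Most R6/1 libraries lay above the WT range, and the groups overlapped. The mean log2 ratio rose from -2.10 ± 0.13 to -1.70 ± 0.16 (SD), by 0.40 (exact permutation p = 1.65e-04, adjusted 2.57e-04).

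**Figure D2:**
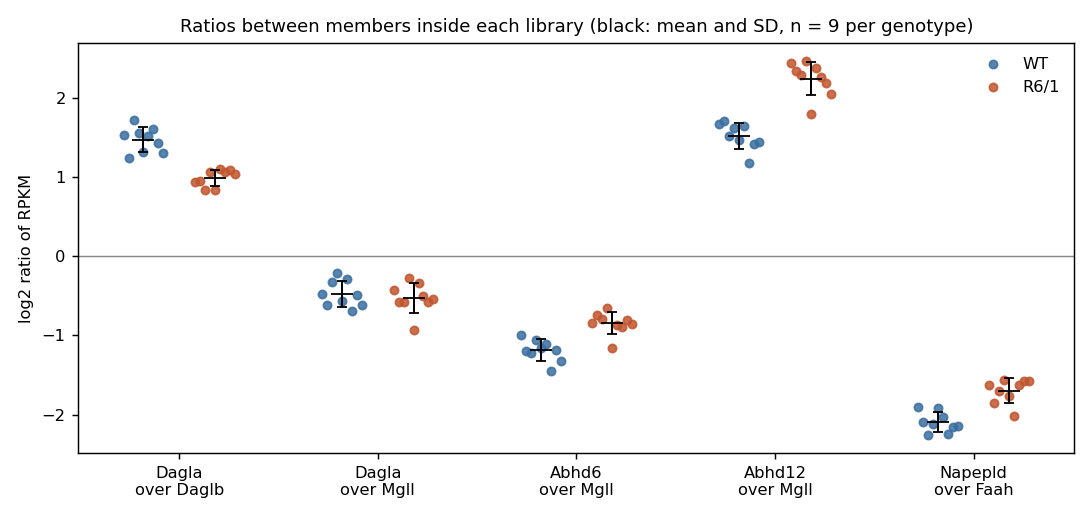
Log2 ratio of RPKM between 2 endocannabinoid genes inside each library for the 5 ratios tested, 9 WT (blue) and 9 R6/1 (orange) libraries, with mean and SD in black. Dagla over Daglb is lower and Abhd12 over Mgll higher in every R6/1 library than in any WT library, whereas the genotypes overlap for Dagla over Mgll, with 1 R6/1 library below all others.

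In WT the order of the levels per length, from the highest, was Abhd12, Mgll, Cnr1, Faah, Dagla, Abhd6, Daglb and Napepld. Each gene stood above the next in 9 of 9 libraries (exact sign-flip permutation p = 0.00391, the smallest that 9 libraries allow, adjusted 0.00497 over 14 neighbour pairs), except that Mgll stood above Cnr1 in 6 of 9 (p = 0.398). In R6/1 the order was the same but for Cnr1 and Mgll, which changed places. Cnr1 stood above Mgll there in 6 of 9 libraries (exact sign-flip permutation p = 0.0625, adjusted 0.0673), so neither order of this pair was beyond the spread. Faah stood above Dagla in 8 of 9 R6/1 libraries (exact sign-flip permutation p = 0.00781, adjusted 0.00911). Neighbours were chosen by the mean levels of the same libraries that were tested. The p-values therefore describe the spread between libraries and do not cover errors of RPKM that differ between genes.

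The libraries of 1 genotype also varied among themselves, and whether the 8 genes did so together was tested on log2 levels centred within genotype. None of the 28 pairs passed adjustment over the 28, by Pearson's r or by Spearman's rho, and 5 had an unadjusted permutation p under 0.05 for r. The strongest pair was Dagla and Faah (r = 0.71, permutation p = 0.00214, adjusted 0.0599; rho = 0.62, permutation p = 0.0116, adjusted 0.268). Without WT replicates 3 and 4, the libraries farthest from the median of Dagla, r was 0.57, and it was 0.86 within WT and 0.41 within R6/1. Mgll and Faah had the most negative r (r = -0.48, permutation p = 0.0292, adjusted 0.268; rho = -0.51, permutation p = 0.0241, adjusted 0.268; r = -0.40 without WT replicate 7 and R6/1 replicate 5). In all, 23 of the 28 values of r were above 0, and every negative value belonged to a pair with Mgll. The share of positive values among pairs of other genes was not computed.

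**Figure D3:**
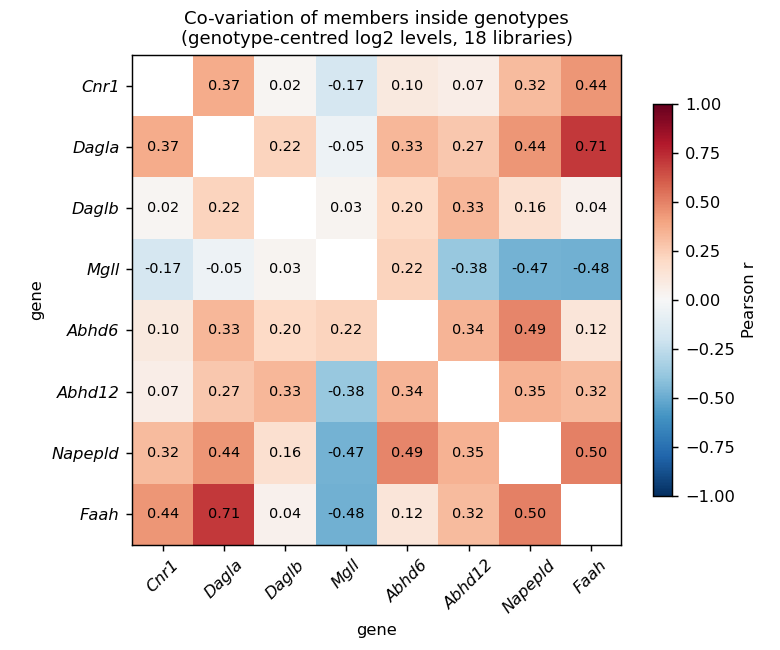
Pearson r between each pair of the 8 genes over 18 libraries, computed on log2(RPKM + 0.5) centred within genotype, so that the genotype difference plays no part. The highest cell is Dagla with Faah (0.71), and no pair passes adjustment over 28. All negative cells are pairs with Mgll, the lowest being those with Faah (-0.48) and Napepld (-0.47).

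Genes outside the 8 whose genotype-centred levels were most like each of the 7 called members (not Abhd12) were sought among 11662 genes that averaged 2 RPKM or more, over the 18 libraries. These r values are the highest of many and are a description only. For Cnr1 the nearest were Smoc2 (r = 0.90), a secreted matrix protein, Myo5b (0.90), a myosin motor, and Pcdh8 (0.88), a protocadherin. For Dagla they were the sodium-calcium exchanger Slc8a2 (0.94) and the muscarinic receptor Chrm1 (0.91). For Faah they were the kinases Camk2b (0.88) and Ptk2b (0.88), and Fam188a (0.87). For Mgll they were the endothelial receptor Kdr (0.87), the peroxisomal transporter Abcd2 (0.86) and Lrp4 (0.86). Daglb, Abhd6 and Napepld had less similar neighbours, led by A230070E04Rik (0.73), Phf5a (0.75) and Fam220a (0.82).

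The genes around the 8 were counted from 6 lists of 59 genes, of which 58 were in the table and 49 were tested. Of these 49, 25 fell, 9 rose and 15 did not pass the test, and the median of their log2 fold changes was -0.15. Over all tested genes 23.5% were called lower and 24.8% higher, and 6.38% were lower without overlap, so a list with a like share of calls does not stand apart from them. The lists are described by these counts alone. In the 5 WT and 3 R6/1 libraries with Ttr up to 200 RPKM, an alternative added after the data were seen, 16 were called lower and 3 higher. The counts were 20 and 12 with limma voom on recovered reads, 21 and 10 with own-total scaling and 22 and 9 with quantile normalization. Over all tested genes these fits, in the same order from the Ttr limit on, called 4016, 7700, 7371 and 7296, against 6980 in the main fit. Of those calls 46.9%, 66.9%, 63.4% and 58.3% were higher.

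Upstream of 2-AG, the Gq-coupled receptors, their G proteins, phospholipase C beta and the Homer scaffolds feed diacylglycerol to DAGLα. Of 15 tested, 10 fell and 1 rose (Gna11, a Gq-class alpha subunit), with a median log2 fold change of -0.35, and for 6 the genotypes did not overlap. Homer3, which ties group I metabotropic glutamate receptors and DAGLα into one complex, measured 8.47, 13.3 and 15.7 RPKM in WT (lowest, median, highest) and 5.11, 5.40 and 7.55 RPKM in R6/1. It had the largest fall of this list (log2 fold change -0.98, SE 0.118, limma adjusted p = 1.15e-06). Chrm1, the M1 muscarinic receptor, fell from 44.4 to 28.1 RPKM on average, without overlap (39.8 to 50.7 in WT and 26.1 to 31.4 in R6/1; log2 fold change -0.65, limma adjusted p = 1.61e-09). Chrm3 fell by 0.63 and the serotonin receptor Htr2a by 0.83 on the log2 scale, the latter from 2.79 to 1.34 RPKM with 49 to 150 reads per library. None of the beta isoforms Plcb2, Plcb3 and Plcb4 passed the test, whereas Plcb1 fell by 0.53 (limma adjusted p = 8.86e-08).

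Downstream of CB1 the list was mixed. Of 11 effectors tested, 5 fell and 4 rose, with a median of -0.04. Those that rose were the inhibitory alpha subunits Gnai1, Gnai2 and Gnai3 (log2 fold changes 0.15, 0.17 and 0.24) and Cacna1b, the pore subunit of the N-type calcium channel that CB1 inhibits. Cacna1b rose from 14.7 to 18.5 RPKM on average, and its groups did not overlap (13.8 to 16.1 in WT and 16.8 to 21.7 in R6/1; log2 fold change 0.33, SE 0.045, limma adjusted p = 5.81e-06). Gnao1, the Go alpha subunit, fell from 90.7 to 80.7 RPKM, by 0.17 on the log2 scale (limma adjusted p = 4.32e-04). Cacna1a, the P/Q-type subunit, fell by 0.18 (limma adjusted p = 0.00595). The GIRK potassium channel subunits Kcnj6 and Kcnj9 fell by 0.30 and 0.31, while Kcnj3 was 40.0 RPKM in WT and 38.9 in R6/1 and did not pass. Rims1, an active-zone scaffold, fell by 0.54 (32.6 to 22.3 RPKM, limma adjusted p = 1.85e-05).

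Of the CB1 partners and other cannabinoid receptors, 3 of 6 were tested and 1 fell. This was Cnrip1, a protein that binds the CB1 tail, with 43.1 ± 3.15 RPKM in WT and 38.1 ± 2.98 RPKM in R6/1 (mean ± SD of 9 libraries, log2 fold change -0.18, limma adjusted p = 0.00738). Sgip1, which holds CB1 at the membrane, was 34.1 RPKM in WT and 34.7 in R6/1 (limma adjusted p = 0.70). The CB2 receptor gene, Cnr2, was near the filter at 0.571 RPKM in WT and 0.471 in R6/1, with 23 to 46 reads per library (limma adjusted p = 0.232).

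Other NAE enzymes showed no common direction: of 9 tested, 2 fell, 2 rose and 5 did not pass, with a median of 0.00. Hrasls, an acyltransferase acting on phospholipids, was the 1 that passed with a log2 fold change of at least 0.3 in size. It measured 4.75, 5.50 and 8.32 RPKM in WT and 6.86, 8.44 and 9.87 RPKM in R6/1, a rise of 0.56 in log2 (SE 0.086, limma adjusted p = 2.40e-05). Its groups overlapped. The alternative NAE pathway enzymes Abhd4 and Gde1 fell by 0.27 and 0.17, and Gdpd1 rose by 0.16. The acid amidase Naaa, the other hydrolase of NAEs, was 16.6 RPKM in WT and 14.6 in R6/1 and did not pass (limma adjusted p = 0.163).

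Other enzymes that can hydrolyse or oxygenate 2-AG, or are relatives of such enzymes, fell in 4 of 6 cases and rose in 1, with a median of -0.22. The 4 include Abhd2, which lay at the threshold (log2 fold change -0.15, limma adjusted p = 0.0497). Abhd2 was not called in the authors' deposited table (adjusted p = 0.053). Ptgs2 (cyclooxygenase-2), an activity-regulated enzyme that oxygenates 2-AG and anandamide, had the largest difference of the 6 pathway lists. It was 6.37, 7.69 and 13.9 RPKM in WT (lowest, median, highest) and 1.39, 1.87 and 2.97 RPKM in R6/1. The groups did not overlap, and the log2 fold change was -1.83 (SE 0.141, limma adjusted p = 3.06e-09). Abhd3, a phospholipase related in sequence to the 2-AG hydrolases and not itself known as one, fell from 37.3 to 24.5 RPKM, by 0.60 on the log2 scale (limma adjusted p = 2.80e-07). Alox5, a lipoxygenase listed by its family and not as a known 2-AG oxygenase, rose by 0.37 (limma adjusted p = 0.00961), but with 5 to 41 reads per library. Among lipid carriers 3 of 5 fell and 1 rose: the fatty acid binding proteins Fabp7 and Fabp5 fell by 1.26 and 0.42, and the chaperone Hspa8 rose by 0.57 (limma adjusted p = 2.63e-07).

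**Figure D4:**
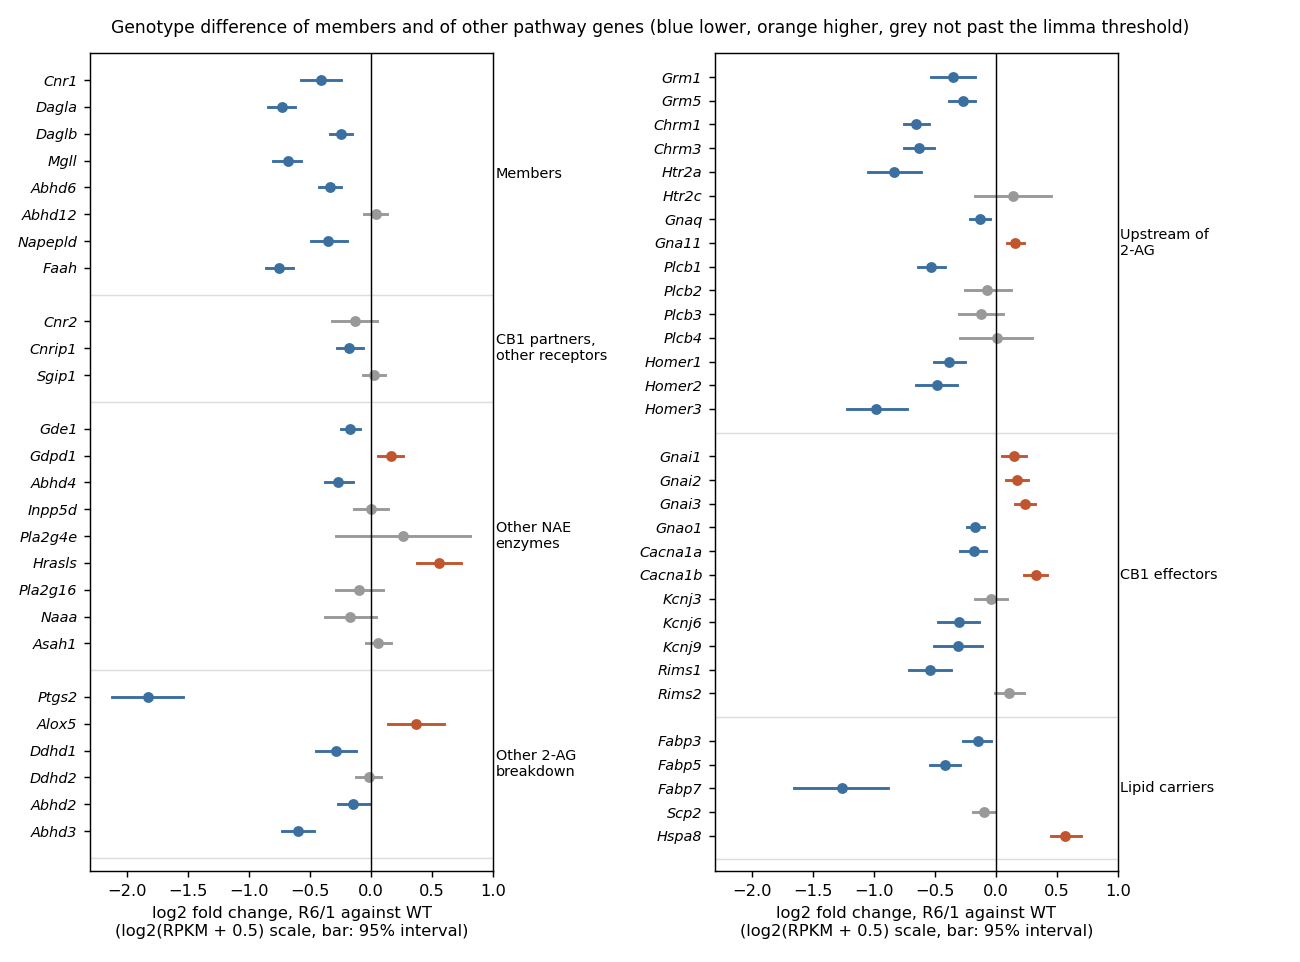
Log2 fold change of R6/1 against WT with 95% interval, on the log2(RPKM + 0.5) scale, for the 8 endocannabinoid genes and the 49 other tested pathway genes by list; blue is lower, orange higher and grey not past the limma threshold. Members other than Abhd12, which is grey here and orange under quantile normalization, own-total scaling and voom, lie left of 0, as do most upstream genes, while CB1 effectors lie on both sides.

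Marker genes of the tissue were read beside these results. Over all tested genes 23.5% were called lower and 6.38% were lower without overlap. A marker list with a like share of calls does not stand apart from them. Prox1, a marker of dentate granule neurons, was present in every library (9.73 to 18.5 RPKM in WT and 8.77 to 11.5 in R6/1). The summed CCK interneuron markers, the cells with the densest CB1, were 269.0 to 355.2 RPKM in WT and 142.3 to 207.5 in R6/1, without overlap, and 5 of 7 fell (median -0.57). Cck itself fell from 234.4 to 119.0 RPKM on average (log2 fold change -0.98, limma adjusted p = 2.88e-09), but pyramidal neurons also express it. Cck made up most of that sum, and of the other 6 markers Cxcl14 alone had no overlap between genotypes. The general inhibitory markers moved less: their sums were 244.3 to 280.1 RPKM in WT and 206.7 to 257.8 in R6/1, with 3 of 4 lower, among them Gad1 by 0.21 and Gad2 by 0.29. Slc32a1, the vesicular GABA transporter, was 24.4 RPKM in WT and 25.1 in R6/1.

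All 7 dentate granule markers fell (median -1.98, summed 69.1 to 118.9 RPKM in WT and 31.2 to 38.3 in R6/1), as did 4 of 6 CA1 markers (median -0.38, summed 188.5 to 275.5 and 152.3 to 171.6) and 6 of 7 CA2 and CA3 markers (median -0.83, summed 246.3 to 430.4 and 157.4 to 208.9). Parvalbumin and somatostatin interneuron markers fell in 4 of 7 cases (median -0.36, summed 266.8 to 363.0 and 137.8 to 193.9 RPKM). These sums did not overlap, as for the CCK interneuron markers. Sst made up most of the parvalbumin and somatostatin sum (mean 195.5 RPKM in WT and 86.7 in R6/1). Nnat made up most of the CA2 and CA3 sum (mean 184.1 and 101.0 RPKM). Among the parvalbumin and somatostatin markers Sst was at -1.17 and Npy at -1.10 in log2, while 3 of the 7 did not pass. Of the astrocyte markers, 7 of 8 fell (median -0.45, summed 1093.6 to 1430.3 and 866.9 to 1111.5 RPKM), and astrocytes also express Mgll. Oligodendrocyte markers fell in 5 of 7 cases (summed 1022.9 to 1314.6 and 631.8 to 1085.9 RPKM). Of the microglial markers, 3 of 7 were called lower (summed 115.7 to 190.7 and 92.9 to 144.2 RPKM). Of the endothelial markers it was 1 of 6 (summed 42.2 to 79.3 and 50.8 to 76.8 RPKM), beside 23.5% of all tested genes. Neither count is read as a fall of the cell type. Of 11 activity-regulated genes 8 fell (median -0.64, summed 118.7 to 339.3 and 87.2 to 216.6 RPKM). No marker of these lists was at 0 reads in any library, and their part in the differences of the 8 genes was not tested.

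Choroid plexus RNA varied widely between libraries and in both genotypes, with summed markers of 26.6 to 1082.5 RPKM in WT and 40.8 to 1756.0 in R6/1, and 0 of 8 passed the test. Without the 4 WT and 6 R6/1 libraries with Ttr (transthyretin) above 200 RPKM, 6 of the 8 endocannabinoid genes were still called lower. That fit called 4016 of the 14446 tested genes, 46.9% of these calls being higher, against 6980 genes in the main fit. Dagla was then at -0.70, Mgll at -0.58, Faah at -0.80 and Cnr1 at -0.41 (limma adjusted p = 3.29e-04, 0.00136, 1.77e-04 and 0.0101). Daglb (-0.25) and Abhd6 (-0.31) also passed. Napepld was at -0.29 and just missed the threshold (limma adjusted p = 0.0563), and Abhd6 over Mgll was at 0.27 (exact permutation test, adjusted p = 0.112).

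None of the 8 genes lay in a lamin B1 domain, the stretches of chromatin at the nuclear lamina. Neither the start nor any base of the 8 gene bodies was in 1 of the 145 WT or 166 R6/1 domains. Among 12951 tested genes placed by symbol, 13.1% had their start in a WT domain and 8.03% in an R6/1 domain. The nearest domain edge was 0.36 Mb from the Abhd12 start in WT and 0.51 Mb in R6/1. For Cnr1 these distances were 1.18 and 1.36 Mb, for Faah 1.77 and 1.69 Mb, and for Dagla 2.53 and 1.76 Mb. Abhd6 had its nearest domain at 27.28 Mb in WT and at 0.53 Mb in R6/1. With 1 list per genotype these positions have no replicate spread and no test.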

How the data were processed

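RNA-seq values of 9 WT and 9 R6/1 libraries were analysed, with genotypes taken from the labels; every per-sample column was used (0 left over). RNA libraries were stranded and made from mRNA, per the labels' protocols. The submitters' processing notes name TopHat, DESeq2 and build mm9; their versions, the counter, its strand setting and the annotation are not given in the sources used here. The authors deposited RPKM values. They were rescaled by the gene's mean normalized count and checked where they were above 0 and under an upper limit of recovered reads. Between 99.86% and 99.90% of the checked values in a library are whole reads within 0.05 of a read, so depth was scaled by size factors. Most values of Cnr1, Mgll and Abhd12 lie above that limit and were not part of this check. The recovered reads were 12299434 to 16736544 per library. A deposited results table holds, for each gene, the authors' mean normalized count (a depth-scaled signal), their log2 fold change and its error, a score of the test, and the p-value before and after adjustment. The deposited lamin B1 domain lists hold 1 score per domain, which was not used beyond the domain's position. How the ChIP replicates were combined is not given in the sources used here. ATAC-seq was not analysed here.

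The 8 genes, the pathway and marker lists and the tests were chosen with earlier results of these data known. The lists were written from general knowledge. Genes averaging 0.5 RPKM or more were fitted with limma 3.58.1 in R 4.3.3 (lmFit and eBayes with trend, two-sided) on log2(RPKM + 0.5), with Benjamini-Hochberg adjustment over 14446 genes and a threshold of 0.05. The pseudocount understates fold changes of low genes. Ratios and neighbours in the order of levels were tested by exact permutation, and co-variation by 100000 permutations within genotype (scipy 1.17.1 and numpy 2.4.6 in Python 3.11.15). Named pathway genes passed the test with a log2 fold change of at least 0.3 in size, at most 4 per list, or had the largest change in a list where fewer than 2 passed. Gna11, Plcb1, Abhd2, Abhd4, Gde1, Gdpd1, Naaa, Gnai1 to Gnai3, Gnao1, Cacna1a, Kcnj3, Sgip1, Cnr2 and Plcb2 to Plcb4 were named after their values were seen. Likeness used the 3 genes with the highest r per called member. Some genes that these rules name are not reported here. On simulated data with 14450 genes tested, the fit recovered 60% of changes of 0.3, 95.9% of 0.6, 100% of 1 and 100% of 2 on the log2 scale, with false calls making up 6.35% of all calls. The simulation changed 49 or 50 genes per size and gave all genes the same dispersion. In the data 48.3% of genes were called, so these shares check the code and do not carry over to the data. The chi-square per degree of freedom between libraries of a genotype was at least 4.04, so none was the same library deposited again. Alternatives were other pseudocounts, filters, scalings, variance models, covariates (choroid plexus markers, Xist), a replicate block, the authors' table and leaving out each library. After the data were seen, a fit on libraries with Ttr up to 200 RPKM and limma voom on recovered reads were added.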

Additional observations from a re-analysis of the deposited data

Results flagged for a closer look

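In 26 groups of 9 libraries (8 genes and 5 ratios in each genotype), 4 held a library whose gap to the nearest other exceeded Dixon's 95% limit, where chance alone gives about 1.3. Mgll was 58.2 RPKM in WT replicate 7, above the next library at 51.4. Mgll was 40.3 RPKM in R6/1 replicate 5, above the next at 33.4, and without that library its log2 fold change was -0.73 (limma adjusted p = 9.55e-11). The same R6/1 replicate 5 was lowest for the log2 ratio of Dagla over Mgll (-0.93, next -0.58) and for that of Abhd6 over Mgll (-1.16, next -0.90), both of which contain the same Mgll value.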

How the results depend on the processing

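Each of the 8 log2 fold changes was recomputed under 33 alternatives, and 6 genes kept their direction and their call under all 33: Cnr1 (-0.43 to -0.34), Dagla (-0.75 to -0.67), Daglb (-0.27 to -0.19), Mgll (-0.73 to -0.58), Abhd6 (-0.36 to -0.28) and Faah (-0.80 to -0.69). Abhd12 passed as higher, giving 1 member called higher, under quantile normalization (0.13), with own-total scaling (0.09) and with voom on recovered reads (0.11). In the 5 WT and 3 R6/1 libraries with Ttr up to 200 RPKM, Abhd12 was at -0.02, Napepld at -0.29 (limma adjusted p = 0.0563), Abhd6 over Mgll at 0.27, and 16 other pathway genes were called lower and 3 higher. That alternative has fewer libraries and called 4016 of all tested genes against 6980 in the main fit. The cause of the other changes was not tested. Leaving out 1 library at a time changed no call of the 8 genes (Mgll -0.73 to -0.66, Napepld -0.37 to -0.32, Abhd12 0.02 to 0.06). Voom called 7700 genes against 6980. Deviations of same-numbered libraries of the 2 genotypes correlated weakly at most (correlations -0.05 to 0.24, 3 of 9 over 0.1, and 2 of 9 best with their own number). Whether these values exceed those of differently numbered libraries was not tested, and the numbers were not taken as pairs. With the number as a replicate block, 7 members were called lower and 0 higher, and 25 other pathway genes lower and 9 higher; log2 fold changes of the 8 genes ran from -0.75 (Faah) to 0.04 (Abhd12), and no call of the 8 changed. Genes under about 10 reads per library, such as Trpv1, are beyond this depth.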

Other observations

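Receptors that are often named with the endocannabinoid system were close to the limit of detection in this tissue. Gpr55 averaged 0.373 RPKM in WT and 0.389 in R6/1, with 6 to 25 reads per library. Gpr18 averaged 0.154 and 0.097 RPKM with 0 to 6 reads, and Trpv1 0.0302 and 0.0043 RPKM with 0 to 5 reads. A count of 0 reads in a library allows up to 3 by counting error. The acyltransferase Hrasls5 had 0 or 1 read per library. These genes averaged under 0.5 RPKM and were left out of the limma fit described in the report. In the authors' deposited table Trpv1 was lower in R6/1 (log2 fold change -0.43, adjusted p = 0.0436), on these few reads.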
